A study of Mus musculus with 4 samples.

Results

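The genes described here are 8 keratins and Epcam, read as 9 rows out of 38293 gene rows in each library. They were chosen by symbol: the luminal keratins Krt7, Krt8, Krt18 and Krt19, the basal keratins Krt5, Krt14, Krt15 and Krt17, and Epcam, which encodes a surface adhesion protein of epithelial cells. RNA was sequenced from mammary tumours of FVB mice that all carried MMTV-Neu, a transgene in which a mammary tumour virus promoter drives the Neu (Erbb2) oncogene in mammary epithelium. The AXL KO group lacked the receptor tyrosine kinase AXL and the WT group kept it, with 2 tumour libraries in each group and no age given. The labels do not say that replicates came from separate animals, so p-values and intervals measure the spread between these libraries, which may be technical in part. Reads in genes ran from 18929743 to 33131739 per library. Axl itself, the check of the genotype, had 4.75 and 4.89 CPM in AXL KO replicates 1 and 2, against 61.7 and 35.2 CPM in WT replicates 1 and 2, where CPM is the count scaled to 1e6 reads in genes with TMM factors.

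Keratins are the intermediate filament proteins of epithelia. Each filament is built from pairs of a type II keratin with a type I keratin, and cells of different layers use different pairs. In the mammary gland the inner luminal cells use type II KRT8 and KRT7 with type I KRT18 and KRT19, and the outer basal or myoepithelial cells use type II KRT5 with type I KRT14 and KRT17. KRT15 is a type I keratin of basal cells in stratified epithelia. MMTV-Neu tumours are known as a luminal type of mouse mammary tumour.

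In GRCm38 the type II genes Krt7, Krt8 and Krt5 lie on chromosome 15 together with the type I gene Krt18, while Krt19, Krt14, Krt15 and Krt17 lie on chromosome 11 and Epcam on chromosome 17. Krt8 (ENSMUSG00000049382) runs from 101996698 to 102004482 on the minus strand, and Krt18 (ENSMUSG00000023043) from 102028180 to 102032027 on the plus strand of the same chromosome. RefSeq (GRCm38.p6) gave a promoter for 6 of the 9 genes. Its windows hold the 250 bases before the RefSeq start, which is not always the start of the gene in GENCODE M21. Of the Krt8 and Krt18 windows 140 and 36 bases lie in the first GENCODE exon, and the other 110 and 214 bases are shown. They are set beside the whole window of Krt5, because the pair of Krt8 and Krt18 was abundant in these tumours and Krt5 was close to the detection limit. The windows of Krt14 and Krt7 lie inside the GENCODE genes with all 250 bases and are not shown. Capitals mark the motifs found among those searched.
Krt8 (chr15:102004483-102004592, minus strand): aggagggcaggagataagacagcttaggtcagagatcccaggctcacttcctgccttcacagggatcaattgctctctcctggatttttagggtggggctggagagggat
Krt18 (chr15:102027966-102028179, plus strand): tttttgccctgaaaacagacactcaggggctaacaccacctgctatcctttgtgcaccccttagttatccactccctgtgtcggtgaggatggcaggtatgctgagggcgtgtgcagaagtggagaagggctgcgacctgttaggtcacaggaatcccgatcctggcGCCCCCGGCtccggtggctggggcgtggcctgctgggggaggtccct
Krt5 (chr15:101712906-101713155, minus strand): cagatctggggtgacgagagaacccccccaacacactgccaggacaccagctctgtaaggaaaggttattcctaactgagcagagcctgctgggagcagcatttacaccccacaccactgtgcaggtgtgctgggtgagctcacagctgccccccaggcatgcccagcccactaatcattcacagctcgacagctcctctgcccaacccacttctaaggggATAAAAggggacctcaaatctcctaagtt
The search covered both strands for TATAAA (in 12.4% of 32851 RefSeq promoter windows of this length), GGGCGG (32.7%), TGANTCA (6.75%), GCCNNNGGC (13.7%) and ATAAAA (17%), of which the first and the last can overlap each other. Krt18 held GCCNNNGGC at position -83 from the RefSeq start, and Krt5 held ATAAAA at position -29. The Krt8 window held none of the 5 motifs. The Epcam window, all of it before the GENCODE gene, held GGGCGG 1 time and ATAAAA 1 time. The Krt7 window, inside the GENCODE gene, held GGGCGG 4 times, GCCNNNGGC 2 times and ATAAAA 1 time. That of Krt14, also inside its gene, held none of the 5. These matches are descriptions of the letters and are not evidence of binding.

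All 4 libraries carried a luminal keratin profile with traces of the basal keratins. Levels between genes were compared as CPM per kilobase of the principal transcript in GENCODE M21. In that unit the means over the 4 libraries were 607 for Epcam, 586 for Krt18, 345 for Krt8, 4.35 for Krt7, 4.28 for Krt19, 0.384 for Krt5, 0.333 for Krt14, 0.114 for Krt17 and 0.0972 for Krt15. The ranges over libraries overlapped between Epcam and Krt18, between Krt18 and Krt8, between Krt7 and Krt19, between Krt5 and Krt14, and between Krt17 and Krt15. Krt8 and Epcam overlapped narrowly, at 474 in the highest Krt8 library and 473 in the lowest Epcam library. Krt15 also overlapped Krt14 and Krt5. Its highest library, WT replicate 2, was at 0.277, and their lowest libraries were at 0.194 and 0.246. The lowest Krt14 library, at 0.194, lay just above the highest Krt17 library, at 0.193. The ranges were far apart across the 2 large steps, from 270 CPM per kilobase in the lowest Krt8 library to 7.41 in the highest Krt7 library, and from 2.08 in the lowest Krt19 library to 0.617 in the highest Krt5 library. The place of Krt7 depends on its length, since its principal transcript has 4094 bases and the union of its exons 7049.

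**Figure D1:**
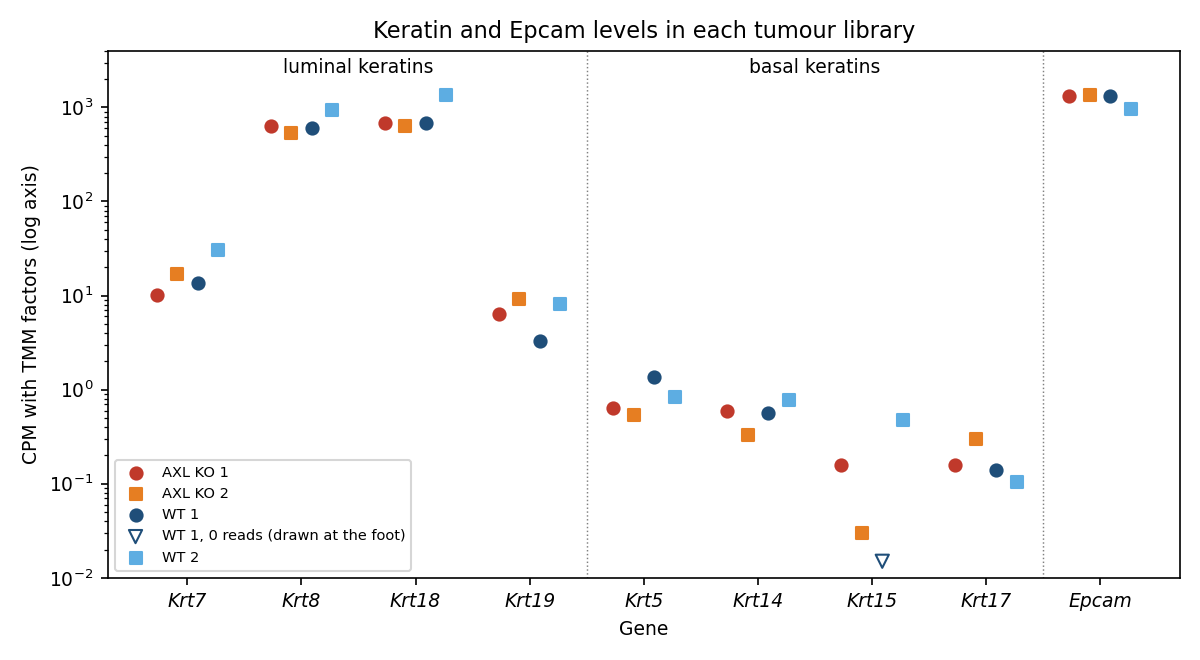
CPM with TMM factors (log axis) of the 9 genes in each library, with AXL KO libraries left of WT libraries and 1 point per library. Krt8, Krt18 and Epcam lie between 528 and 1365 CPM, Krt7 and Krt19 between 3.27 and 30.3 CPM, and the basal keratins at or under 1.36 CPM, with Krt15 at 0 reads in WT replicate 1.

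The question the design asks of these genes is whether tumours without AXL differed from WT tumours in luminal or basal keratin levels. Of the 9 genes, 7 passed edgeR's low-count filter and were tested among 14330 genes, and Krt15 and Krt17 did not pass. By the quasi-likelihood test in edgeR none of the 7 passed, and each had an adjusted p of 0.9997 over all tested genes. Over all genes edgeR called 0 (0%), and 2.19% (314 genes) had an unadjusted p under 0.05, of which 0 were keratins or Epcam. DESeq2 called 16 genes (0.112%) and limma-voom 0, and neither called any of the 7. The intervals below show how large a difference these 4 libraries leave possible.

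Krt18, the type I partner of KRT8 in simple epithelia, had 682 and 631 CPM in AXL KO replicates 1 and 2, against 690 and 1365 CPM in WT replicates 1 and 2. Both AXL KO libraries were below both WT libraries, as for 14.5% of all tested genes, but AXL KO replicate 1 and WT replicate 1 lay only 682 against 690 CPM, and the distance between the groups came from WT replicate 2. Krt18 averaged 656 ± 35.8 CPM in AXL KO and 1028 ± 477 CPM in WT (SD, n = 2 each). On the log2 scale the difference was -0.65 (SE 0.39, 95% interval -1.63 to 0.34). Without WT replicate 2 it was -0.08.

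Krt8, the type II partner of KRT18, had 635 and 528 CPM in AXL KO replicates 1 and 2, against 610 and 928 CPM in WT replicates 1 and 2. The groups overlapped, because WT replicate 1 lay between the AXL KO libraries, and WT replicate 2 was again the highest. The log2 difference was -0.40 (SE 0.30, 95% interval -1.17 to 0.36), and without WT replicate 2 it was -0.07. Reads that also match a processed pseudogene, Krt8-ps, or the overlapping noncoding gene Gm36026 may be missing from Krt8 or given to the wrong gene. The counts of Krt8 carry that uncertainty.

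The ratio of the partners was lowest in WT replicate 2. Krt8 reads over Krt18 reads, per base of transcript, came to 0.684 and 0.615 in AXL KO replicates 1 and 2 and to 0.649 and 0.499 in WT replicates 1 and 2. Krt18 was thus the more abundant per base in 4 of 4 libraries, most of all in WT replicate 2. Together Krt8 and Krt18 made up 98.8% and 97.8% of the luminal keratin reads in AXL KO replicates 1 and 2 and 98.7% and 98.3% in WT replicates 1 and 2.

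Krt7 and Krt19 were the minor luminal keratins, a type II and a type I gene. Krt7 had 10.2 and 17 CPM in AXL KO replicates 1 and 2, against 13.6 and 30.3 CPM in WT replicates 1 and 2. The groups overlapped, and the log2 difference of -0.69 (SE 0.48, 95% interval -1.90 to 0.53) became 0.0041 without WT replicate 2. Krt7 overlaps the antisense gene Gm671, whose reads cannot be told apart without a stated strand setting.

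Krt19 was the only luminal keratin with a positive difference. It had 6.3 and 9.23 CPM in AXL KO replicates 1 and 2, against 3.27 and 8.16 CPM in WT replicates 1 and 2. WT replicate 1 was the lowest library, and WT replicate 2 lay between the AXL KO libraries. The log2 difference was 0.45 (SE 0.52, 95% interval -0.88 to 1.78), against 1.25 without WT replicate 2 and -0.06 without WT replicate 1, so its direction rested on WT replicate 1.

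Epcam, per kilobase the most abundant of the 9 genes in 3 libraries, had 1317 and 1342 CPM in AXL KO replicates 1 and 2, against 1329 and 965 CPM in WT replicates 1 and 2. WT replicate 2 was the lowest library here, while the other 3 lay close together. Epcam averaged 1329 ± 17.6 CPM in AXL KO and 1147 ± 257 CPM in WT (SD, n = 2 each), a log2 difference of 0.21 (SE 0.31, 95% interval -0.58 to 1.01) that was -0.0028 without WT replicate 2.

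**Figure D2:**
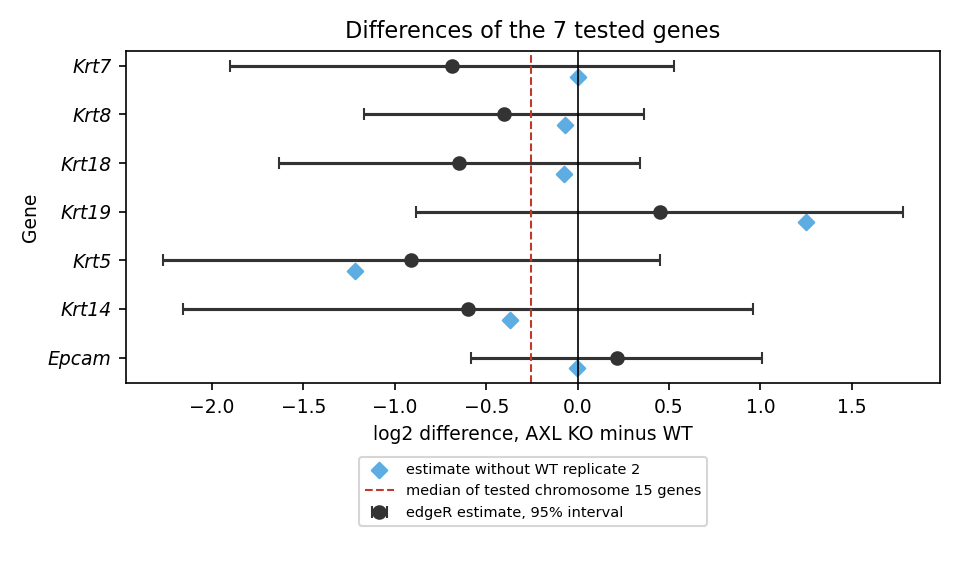
log2 difference, AXL KO minus WT, of the 7 tested genes (points) with 95% intervals from edgeR (bars), the same without WT replicate 2 (diamonds), and the median of tested chromosome 15 genes (dashed line at -0.26). All 7 intervals include 0, and the diamonds of Krt7, Krt8, Krt18 and Epcam lie between -0.08 and 0.0041.

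The basal keratins were rare in every library. Krt5, the type II keratin of basal cells, had 12 and 18 reads in AXL KO replicates 1 and 2, against 29 and 16 reads in WT replicates 1 and 2. That is 0.641 and 0.539 CPM in AXL KO and 1.36 and 0.837 CPM in WT. Both AXL KO libraries were below both WT libraries, as for 14.5% of all tested genes. The exact 95% Poisson intervals of AXL KO replicate 1, 0.331 to 1.12 CPM, and WT replicate 2, 0.478 to 1.36 CPM, overlapped. The log2 difference was -0.91 (SE 0.53, 95% interval -2.27 to 0.45) and rested on these few reads. It ran from -1.22 without WT replicate 2 to -0.51 without WT replicate 1.

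Krt14, the type I partner of KRT5, had 11 and 11 reads in AXL KO replicates 1 and 2, against 12 and 15 reads in WT replicates 1 and 2. Its levels were 0.587 and 0.33 CPM in AXL KO and 0.561 and 0.785 CPM in WT. The groups overlapped, and the log2 difference was -0.60 (SE 0.61, 95% interval -2.16 to 0.96). It was -0.21 without AXL KO replicate 2 and -1.02 without AXL KO replicate 1.

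Krt17, a type I keratin also made by skin appendages and injured epidermis, had 3 and 10 reads in AXL KO replicates 1 and 2, against 3 and 2 reads in WT replicates 1 and 2. At 0.16 and 0.3 CPM in AXL KO against 0.14 and 0.105 CPM in WT, both AXL KO libraries were above both WT libraries. That held for 14.7% of all tested genes, which do not include Krt17. The exact 95% Poisson intervals of AXL KO replicate 1, 0.033 to 0.468 CPM, and WT replicate 1, 0.0289 to 0.41 CPM, overlapped. Krt15 had 3 and 1 reads in AXL KO replicates 1 and 2, against 0 and 9 reads in WT replicates 1 and 2. With 3 reads taken as the limit that a count of 0 allows, Krt15 could be present at up to 0.14 CPM in WT replicate 1, and the exact 95% Poisson interval reached 0.172 CPM. No difference of Krt15 or Krt17 could be resolved at this depth. Krt14 and Krt17 are close paralogs of each other, so a few reads may be assigned to the wrong gene. Poisson intervals and limits cover counting error only.

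Set against each other, luminal keratin reads far outnumbered basal keratin reads in all 4 libraries. The luminal keratins summed to 24981 and 39567 reads in AXL KO replicates 1 and 2 and to 28180 and 44560 reads in WT replicates 1 and 2. The basal keratins summed to 29 and 40 reads in AXL KO replicates 1 and 2 and to 44 and 42 reads in WT replicates 1 and 2. The basal share of these keratin reads was 0.116% (exact Clopper-Pearson 95% interval 0.0777 to 0.166) and 0.101% (0.0722 to 0.137) in AXL KO replicates 1 and 2, and 0.156% (0.113 to 0.209) and 0.0942% (0.0679 to 0.127) in WT replicates 1 and 2. The AXL KO libraries lay between the WT libraries. Corrected for transcript length, the share was 0.104% and 0.0904% in AXL KO and 0.13% and 0.0826% in WT.

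The mean log2 CPM of the luminal keratins minus that of the basal keratins, with a prior count of 2, was 7.46 and 8.02 in AXL KO replicates 1 and 2 and 7.495 and 7.95 in WT replicates 1 and 2. The AXL KO mean exceeded the WT mean by 0.02, while libraries of one group varied with a pooled SD of 0.36. With 1 library left out the difference ran from -0.26 to 0.30, and with a prior count of 0.5 it was -0.07.

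**Figure D3:**
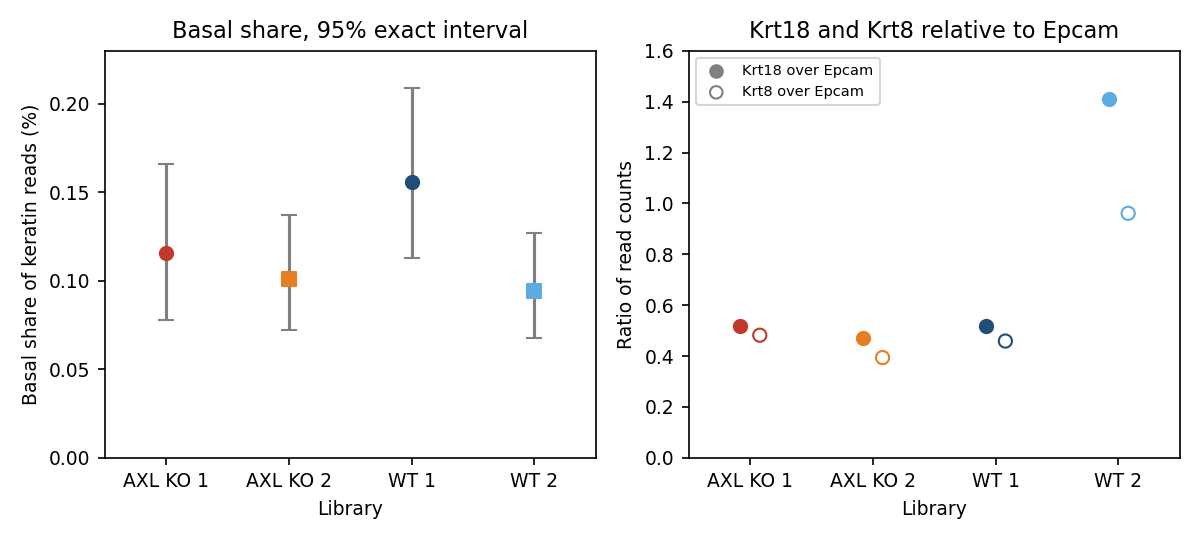
Left, the basal share of luminal and basal keratin reads in each library, with exact 95% binomial intervals as bars. Right, Krt18 reads (filled) and Krt8 reads (open) over Epcam reads, where WT replicate 2 stands at 1.41 and 0.961 and the other libraries lie between 0.394 and 0.519.

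Relative to Epcam the keratin pair was highest in 1 library. Krt18 reads over Epcam reads came to 0.518 and 0.47 in AXL KO replicates 1 and 2 and to 0.519 and 1.41 in WT replicates 1 and 2. For Krt8 the ratios were 0.482 and 0.394 in AXL KO and 0.459 and 0.961 in WT. WT replicate 1 was close to both AXL KO libraries in both ratios, and WT replicate 2 was far above all 3.

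Chromosome 15 genes as a whole also stood higher in that library. Over 549 tested genes of chromosome 15, which include Krt7, Krt8, Krt18 and Krt5, the median log2 deviation from the mean of the 4 libraries was -0.14 and -0.11 in AXL KO replicates 1 and 2 and -0.06 and 0.31 in WT replicates 1 and 2. WT replicate 2 was the highest library for 68.9% of them, against 34.6% of all tested genes, 27.6% of chromosome 11 genes and 25.4% of chromosome 17 genes. The median log2 difference of chromosome 15 genes was -0.26, against -0.0019 over all tested genes, and it was -0.05 without WT replicate 2. The part of chromosome 15 in the keratin differences was not tested.

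As a list, 1 of 4 luminal keratins had a positive and 3 had a negative log2 difference, with a median of -0.52. The 2 tested basal keratins were both negative with a median of -0.75. Of the basal keratins not tested, Krt17 was higher in both AXL KO libraries and the groups overlapped for Krt15. Over all tested genes 7123 were positive and 7207 negative. WT replicate 2 was the highest library for 3 of the 4 luminal keratins, against 34.6% of all tested genes. These 3, Krt7, Krt8 and Krt18, lie on chromosome 15, where WT replicate 2 was highest for 68.9% of tested genes. Leaving out WT replicate 2 gave a luminal median of -0.03, and leaving out WT replicate 1 gave -0.86. The basal median was -0.50 without AXL KO replicate 2 and -1.02 without AXL KO replicate 1.

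Beyond these members, 45 other protein-coding keratin genes were in the files, and 27 of them had no read in any library. Another 13 had between 1 and 20 reads over all 4 libraries, and 5 had more and were tested. Krt23, a type I keratin of simple epithelia, was the most abundant at 15.2 and 22.1 CPM in AXL KO replicates 1 and 2, against 35.2 and 13.7 CPM in WT replicates 1 and 2. Krt10, a type I keratin of the upper epidermis, had 3.95 and 4.2 CPM in AXL KO against 3.18 and 3.24 CPM in WT, so both AXL KO libraries were above both WT libraries, as for 14.7% of all tested genes. Krt79, a type II gene, had 1 and 10 reads in AXL KO against 11 and 31 reads in WT. Its AXL KO libraries were both lowest, as for 14.5% of all tested genes. Krt80 and Krt71, also type II genes, were at or under 2.09 CPM, and Krt1, the epidermal partner of KRT10, had 2 or 3 reads in each library. None passed edgeR, with log2 differences from -2.37 for Krt79 to 0.34 for Krt10.

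Desmosome genes, whose products anchor keratin filaments at cell contacts, were measured next. Of 12 listed genes 9 were tested, 9 had a negative log2 difference and the median was -0.42. For 6 of the 9 both AXL KO values were under both WT values, against 14.5% of all genes. Dsg2, a desmosomal cadherin, had 277 and 293 CPM in AXL KO replicates 1 and 2, against 316 and 449 CPM in WT replicates 1 and 2. Jup, which encodes plakoglobin, had 410 and 347 CPM in AXL KO against 458 and 449 CPM in WT, with both WT libraries close together and above both AXL KO libraries. Dsp, the desmoplakin gene that binds keratin directly, had 166 and 229 CPM in AXL KO against 239 and 203 CPM in WT, and Dsc2, a second cadherin, 140 and 199 CPM against 167 and 253 CPM, so both overlapped. None of the 9 passed edgeR over all genes, and 1 had an unadjusted p under 0.05, against 2.19% of all tested genes. That gene, the plakophilin gene Pkp1, had 1.44 and 2.1 CPM in AXL KO against 3.04 and 54.7 CPM in WT and was chosen after its values were seen. WT replicate 2 was the highest library for 6 of the 9, against 34.6% of all tested genes. Without WT replicate 2 the median was -0.19, with 8 of 9 negative, and without WT replicate 1 it was -0.65.

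Several of the hemidesmosome and plakin genes encode proteins that tie keratin to the basement membrane. The list had 7 of 8 negative differences with a median of -0.26. Of the 8 genes, 4 lay lower and 1 higher in both AXL KO libraries, against 14.5% and 14.7% of all tested genes. The median ran from -0.41 without AXL KO replicate 2 to -0.18 without WT replicate 2. Itga6, the integrin alpha subunit of hemidesmosomes, had 332 and 315 CPM in AXL KO replicates 1 and 2, against 374 and 623 CPM in WT replicates 1 and 2. Its partner Itgb4 had 175 and 177 CPM in AXL KO against 194 and 192 CPM in WT. Dst, which encodes a plakin linker, went the other way at 306 and 427 CPM in AXL KO against 271 and 243 CPM in WT. Cd151, a tetraspanin gene, overlapped at 103 and 100 CPM in AXL KO against 94 and 124 CPM in WT. None passed edgeR over all genes, and 0 had an unadjusted p under 0.05.

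The abundant genes of epithelial adhesion followed Epcam rather than the keratin pair in WT replicate 2, where Cdh1, Cldn3, Spint2 and St14 were each at their lowest. Of 11 tested genes 3 were positive and 8 negative, with a median of -0.12, and 4 were lower in both AXL KO libraries, against 14.5% of all tested genes. Without WT replicate 1 the median was 0.12, with 6 of 11 positive, and without WT replicate 2 it was -0.22, with 11 of 11 negative. Cdh1, the E-cadherin gene, had 369 and 366 CPM in AXL KO replicates 1 and 2, against 414 and 341 CPM in WT replicates 1 and 2. Spint2, a protease inhibitor gene, had 589 and 586 CPM in AXL KO against 624 and 477 CPM in WT. Cldn3, a tight junction gene, had 398 and 456 CPM in AXL KO against 523 and 383 CPM in WT, and St14, a membrane protease gene, had 354 and 372 CPM against 433 and 253 CPM. None of the 11 passed edgeR over all genes.

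Luminal markers other than keratins summed to between 2575 and 2881 CPM per library, mostly from Kit, Ehf, Cd24a and Elf5. Others were close to the detection limit, among them Foxa1 and Cited1, at or under 1.41 CPM in every library. Both were named after their values were seen. Kit, a receptor of luminal progenitors, had 1371 and 1199 CPM in AXL KO replicates 1 and 2, against 1192 and 1120 CPM in WT replicates 1 and 2. The ETS factor genes Ehf and Elf5 had 368 and 376 CPM and 307 and 187 CPM in AXL KO, against 397 and 603 CPM and 254 and 280 CPM in WT. Cd24a, a surface marker gene, had 393 and 362 CPM in AXL KO against 452 and 234 CPM in WT. Of the 15 listed genes 11 were tested, and 5 were positive and 6 negative with a median of -0.05. Of the 11, 2 lay higher and 2 lower in both AXL KO libraries, against 14.7% and 14.5% of all tested genes. By edgeR 1 had an unadjusted p under 0.05, against 2.19% of all tested genes. Without AXL KO replicate 2 the median was 0.09, with 7 of 11 positive, and it was -0.11 without WT replicate 1. The gene with that unadjusted p was the oestrogen receptor gene Esr1, chosen after its values were seen, at 18.3 and 11.5 CPM in AXL KO against 6.87 and 7.01 CPM in WT. It did not pass edgeR after adjustment (adjusted p = 0.9997).

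Basal and myoepithelial markers other than keratins summed to 76.4 and 78.1 CPM in AXL KO replicates 1 and 2 and to 82.7 and 128 CPM in WT replicates 1 and 2. The 10 tested genes split 5 and 5 by sign, with a median of 0.09. The median ran from -0.59 without AXL KO replicate 2, with 7 of 10 negative, to 0.22 without AXL KO replicate 1, and it was -0.05 without WT replicate 1. The contractile genes Mylk and Acta2, which vascular smooth muscle and fibroblasts also express, had 36.1 and 11.6 CPM and 9.98 and 21 CPM in AXL KO, against 11.1 and 39.1 CPM and 18.7 and 46.6 CPM in WT. The muscle genes Lmod1 and Myh11 had 19.7 and 27.7 CPM and 3.04 and 6.56 CPM in AXL KO, against 39.3 and 26.3 CPM and 3.5 and 4.6 CPM in WT. Trp63, the transcription factor gene that defines basal epithelium, was low at 2.51 and 2.13 CPM in AXL KO against 0.794 and 1.62 CPM in WT, and was named after its values were seen. Cornified layer genes of skin summed to between 15.3 and 19.3 CPM, with 2 of 11 tested. The most abundant were the transglutaminase gene Tgm1, at most 9.68 CPM, and Sbsn, at most 11.7 CPM.

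**Figure D4:**
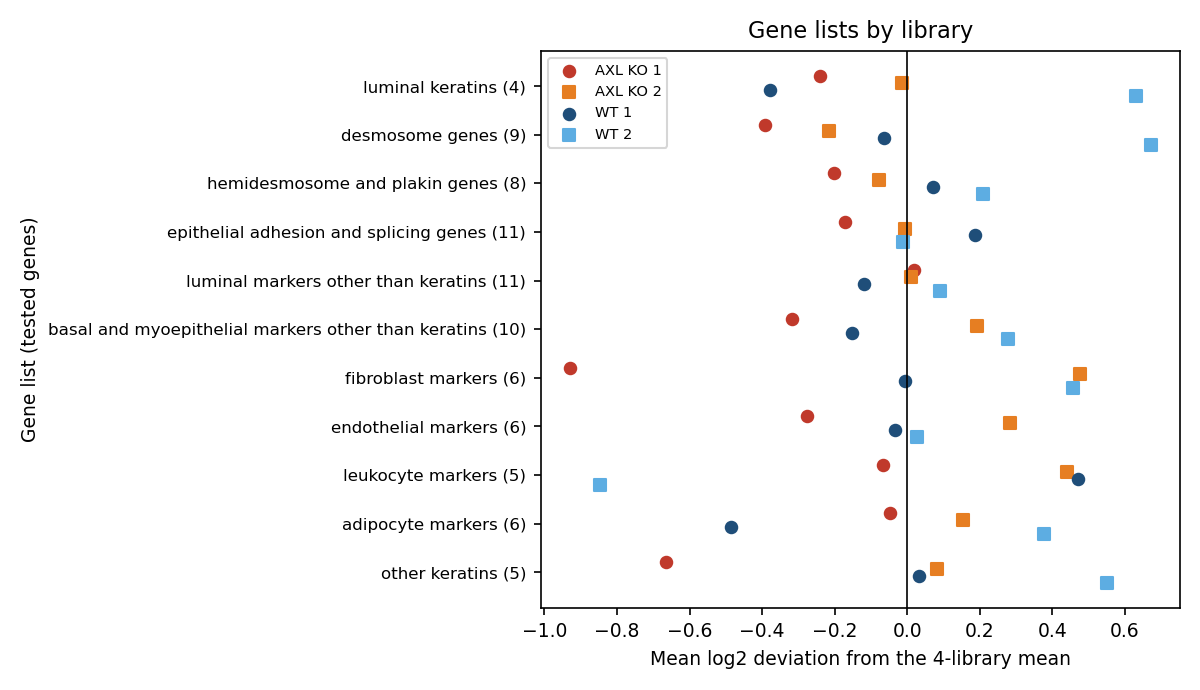
Mean log2 deviation of each gene list from its mean over the 4 libraries, 1 point per library, with the number of tested genes in brackets. WT replicate 2 lies highest for desmosome genes (0.67), luminal keratins (0.63), other keratins (0.55), adipocyte markers (0.38) and basal markers (0.28). It is also highest for hemidesmosome and plakin genes (0.21) and luminal markers other than keratins (0.09), and lowest for leukocyte markers (-0.85). The desmosome value includes Pkp1, at 54.7 CPM in WT replicate 2 and at most 3.04 CPM elsewhere. AXL KO replicate 1 is lowest for fibroblast markers (-0.93).

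The makeup of the bulk tumours also varied between libraries, and in bulk tissue fewer cells of a type and less RNA per cell cannot be told apart. Fibroblast markers summed to 270 and 908 CPM in AXL KO replicates 1 and 2 and to 674 and 980 CPM in WT replicates 1 and 2. Leukocyte markers summed to 138 and 194 CPM in AXL KO and to 191 and 100 CPM in WT, so WT replicate 2, the library with the highest Krt8 and Krt18, had the lowest leukocyte sum. Adipocyte markers summed to 91.4 and 100 CPM in AXL KO and to 58.5 and 121 CPM in WT, endothelial markers to between 87.9 and 120 CPM, and skeletal muscle markers to between 1.41 and 2.19 CPM. Of these 5 lists 0 members passed edgeR or had an unadjusted p under 0.05. The part of tissue makeup in the keratin values was not tested.

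Among genes outside these lists, the pattern over 4 libraries nearest to the mean of the luminal keratins was that of Lsm3, a spliceosome component gene. It had 12.1 and 14.5 CPM in AXL KO replicates 1 and 2, against 11.2 and 22.7 CPM in WT replicates 1 and 2, at a root mean square distance of 0.01 on the log2 scale. Gsn, Dcaf17, Itpa and Nup160 followed at distances of 0.03 to 0.04. Nearest to the basal keratins were Zfyve1, Tmem38a, Scml4, Zcchc3 and Nudcd1, but that pattern rests on 0 to 29 reads per gene and library. The likeness over 4 points is given as a description.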

How the data were processed

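The authors deposited raw read counts, 1 whole number per Ensembl gene and library; per the submitters' processing notes the tools included HTSeq 0.5.3, TopHat2 2.0.10, CASAVA 1.8 and, on GRCm38, DESeq2 1.4.5, with no roles given. The sources used here give neither annotation release nor strand setting. The 5 summary lines were left out; of all lines summed, 23.2% to 28.1% were alignments that were not unique, 5.27% to 8.11% outside genes and 0.635% to 1.85% ambiguous. Symbols and lengths came from GENCODE M21 (36429 of 38293 identifiers matched).

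Genes were filtered with filterByExpr, scaled with TMM and tested with edgeR 4.0.16 (glmQLFit, glmQLFTest, R 4.3.3) with Benjamini-Hochberg adjustment at 0.05. DESeq2 1.42.0 and limma 3.58.1 were alternatives. Standard errors were log2 differences over the root of F. The test was tested on simulated data. Library pairs differed by more than sampling noise (chi-square per degree of freedom 30.3 to 151). The value was 132 to 151 for pairs with WT replicate 2 and 30.3 to 56 for the other pairs.

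Members and lists were chosen with earlier results of these data known. Named were all members, the 6 most abundant other keratins, up to 4 of the most abundant genes of each other list, and the 5 tested genes nearest in pattern to each keratin list (mean CPM of at least 5); exceptions are marked. The values of 1 listed gene are not reported here.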

Additional observations from a re-analysis of the deposited data

How the results depend on the processing

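The count over all genes, the 7 tested genes and the luminal and basal medians were recomputed by DESeq2 and limma-voom, with other scaling (size factors of DESeq2 or totals), without the filter on counts or with a minimum CPM of 1 in 2 libraries, with the replicate number as a block, and without each library in turn. None of these put a keratin or Epcam past the adjusted threshold. Over all genes DESeq2 called 16, and with 1 library left out edgeR called from 0 to 246, the highest without WT replicate 1. Signs of single genes turned only with a library left out: Krt19 ran from -0.0567 (without WT replicate 1) to 1.25, Krt7 from -1.14 to 0.0041 (without WT replicate 2) and Epcam from -0.0028 (without WT replicate 2) to 0.47. The Krt18 difference ran from -1.05 to -0.08 and that of Krt8 from -0.67 to -0.07, both smallest without WT replicate 2. Replicate numbers are not stated to pair animals, and replicate 1 minus 2 correlated at -0.045 over genes between groups. With the replicate block Krt18 was at -0.57, Krt8 at -0.38 and Krt5 at -0.85, with 0 genes called and 571 at an unadjusted p under 0.05. The filter on CPM left no basal keratin to test. The luminal to basal difference was redone with 1 library left out, with library totals (0.01), from summed CPM (0.16) and with a prior count of 0.5, where it changed sign (-0.07). The medians of the other lists were redone only with 1 library left out, an alternative added after the data were seen. Having 2 libraries a group and 0 to 29 basal reads limits what could be seen.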
